A study of Mus musculus with 2 samples.

Results

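The mir-344 family was measured in mouse embryonic midbrain as 10 listed genes of chromosome 7, taken from 1973 miRNA genes in the deposited count tables. The members were found by matching the tables' gene identifiers to the listed symbols Mir344, Mir344-2, Mir344b, Mir344c, Mir344d-1, Mir344d-2, Mir344d-3, Mir344e, Mir344f and Mir344g. All 10 were present in both tables. The samples were 2 microRNA-seq libraries of midbrain at embryonic day 16.5 from B6NCrl mice, with no treatment, mutation or second tissue in the design. Each library was made from a pool of embryos of both sexes, and the pool of replicate 2 held 37 embryos. The design held 1 group and no second condition, so the questions were which copies were read, how much, and how far the pools differed.

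MicroRNAs are cut from hairpin precursors, and each hairpin can give a mature RNA from its 5′ arm and another from its 3′ arm. A mature miRNA recognises target mRNAs mainly through its seed, bases 2 to 8 counted from its 5′ end, so miRNAs with the same seed are grouped together. Mir-344 is known from rodents and was named from small RNAs cloned from rat cortical neurons. Its copies lie in tandem on chromosome 7 near Ndn and Magel2, paternally expressed imprinted genes of the region that corresponds to the human Prader-Willi locus.

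The sequences are shown first because the copies differ little, and these differences set which of them can be counted apart. They were taken from RefSeq on build GRCm38.p6, where all 10 genes were matched and each hairpin was identical to that of GENCODE M21 (GRCm38, mm10). They are written 5′ to 3′ with the seed in capitals. From the 3′ arm, miR-344-3p is made by both Mir344 and Mir344-2, and miR-344d-3p by Mir344d-1, Mir344d-2 and Mir344d-3.
miR-344-3p: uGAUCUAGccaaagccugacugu
miR-344c-3p: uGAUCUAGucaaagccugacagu
miR-344d-3p: gAUAUAACcacugccagacuga
miR-344e-3p: gAUAUAACcaaagccugacuau
miR-344b-3p: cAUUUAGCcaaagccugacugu
miR-344f-3p: cUCUAGCCaggaccugacuac
miR-344g-3p: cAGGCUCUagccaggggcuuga

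The 3′ arms therefore carried 5 seeds. GAUCUAG was common to Mir344, Mir344-2 and Mir344c, and AUAUAAC to the 3 Mir344d copies and Mir344e, while Mir344b, Mir344f and Mir344g each had a seed of their own. Outside their seed, miR-344-3p and miR-344c-3p differed at 2 of 23 bases (C9U and U21A, positions from the 5′ end, miR-344-3p first). MiR-344d-3p and miR-344e-3p differed at 5 of 22 bases, C11A, U12A, A16U, G21A and A22U with miR-344d-3p first. Among the RefSeq mature miRNAs the seed AUAUAAC was also that of miR-410-3p, made from Mir410 of the imprinted Dlk1-Dio3 domain on chromosome 12, and AGGCUCU that of miR-7070-3p. The other 3 seeds of the 3′ arm were found in no miRNA outside the family in that table.

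The 5′ arms were more alike, and the seed GUCAGGC was held by 7 of the 10 genes. They are shown because they are the only mature sequences that tell the 3 Mir344d copies apart.
miR-344-5p: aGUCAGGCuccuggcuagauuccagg
miR-344b-5p: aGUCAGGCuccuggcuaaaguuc
miR-344c-5p: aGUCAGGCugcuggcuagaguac
miR-344g-5p: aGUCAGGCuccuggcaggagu
miR-344d-1-5p: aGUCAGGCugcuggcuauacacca
miR-344d-3-5p: aGUCAGGCuagugguuauacucc
miR-344d-2-5p: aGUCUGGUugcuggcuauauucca
miR-344f-5p: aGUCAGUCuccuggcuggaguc
miR-344e-5p: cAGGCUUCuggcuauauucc

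The other 3 genes each had a 5′ seed of their own within the list. It was GUCAGUC in Mir344f, it read GUCUGGU in Mir344d-2, and in Mir344e it was AGGCUUC. The tables count reads per hairpin gene and do not say which arm a read came from, so the levels below are of both arms together and no seed has a level of its own.

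The family was a minor part of the midbrain miRNA reads counted to a gene. Its 10 genes held 367 of 6151299 sense-strand miRNA reads in replicate 1 and 260 of 5312642 in replicate 2. Levels are given as CPM, a gene's reads scaled to the sum of sense-strand reads over all miRNA genes in that library. An insert is a whole mature RNA, so reads were not divided by length. The layout of the counts is one that leaves out reads mapping to several places. Reads from sequence shared between hairpins may thus be missing from these levels. The summed level was 59.7 CPM in replicate 1 (exact 95% binomial interval 53.7 to 66.1) and 48.9 CPM in replicate 2 (43.2 to 55.3), or 54.3 ± 7.58 CPM (SD, n = 2). These intervals overlapped, but overlap is not a test of the libraries against each other and does not show equal levels. With 0.5 reads added to each count, the log2 ratio of the sum (replicate 2 to replicate 1) was -0.28. The difference in the sum was not tested. The intervals cover counting error only, and reads without molecular identifiers are not independent molecules. In a bulk tissue, fewer cells of a type and less RNA per cell cannot be told apart.

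Of the 10 genes 6 were detected, which means 10 or more sense reads in both libraries. Of all 1973 miRNA genes, 20.8% were detected, and 38.4% of the 1051 genes with a Mir symbol. The other 4, Mir344, Mir344-2, Mir344d-1 and Mir344d-2, had 0 reads in both libraries. A count of 0 allows up to 3 reads, or 0.488 CPM in replicate 1 and 0.565 CPM in replicate 2, of reads that can be assigned to the gene. No member fell between these classes, and 0 reads lay on the strand opposite any of the 10 genes.

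Mir344f was the copy with the most counted reads, 173 (28.1 CPM) in replicate 1 and 96 (18.1 CPM) in replicate 2. Its mean of 23.1 ± 7.11 CPM placed it at rank 278 of the 411 detected genes, above 32.4% of them and below their median of 108 CPM. It held 47.1% of the family's reads in replicate 1 and 36.9% in replicate 2. By distance of log2(CPM + 1) over the 2 libraries, the genes of other families nearest to it were Mir1968 on chromosome 8 (distance 0.15), Mir302c on chromosome 3 (0.18) and Mir452 on chromosome X (0.28). With 2 libraries this likeness is one of level more than of pattern. Reads of mature sequences held by several copies may not be counted, so Mir344f is first in counted reads only.

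Mir344c and Mir344b followed at similar means. Mir344c had 90 reads (14.6 CPM) in replicate 1 and 49 reads (9.22 CPM) in replicate 2, with a mean of 11.9 ± 3.82 CPM. Mir344b had 57 reads (9.27 CPM) and 67 reads (12.6 CPM), with a mean of 10.9 ± 2.37 CPM. Their order was opposite in the libraries, Mir344c being higher in replicate 1 and Mir344b in replicate 2, and their ranges overlapped. Mir344f lay above both in each library, 1.94 times the mean of Mir344c.

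The other detected copies were near the limit of detection. Mir344e had 21 and 23 reads (3.41 and 4.33 CPM), a mean of 3.87 ± 0.65 CPM. Mir344g had 15 and 11 reads (2.44 and 2.07 CPM), a mean of 2.25 ± 0.26 CPM. Mir344d-3 had 11 and 14 reads (1.79 and 2.64 CPM), a mean of 2.21 ± 0.60 CPM. Mir344e lay above both in each library, but the counting intervals of these 3 genes overlapped in each library, and Mir344g and Mir344d-3 could not be ordered. Mir344b exceeded Mir344e 2.83-fold in the mean, with no overlap between the libraries. The 5′ arm of Mir344e is also in Mir344h-1 and Mir344h-2, so reads of that arm may be missing from this fold. By their means the detected levels thus fell into a first gene, a pair near 11 CPM and 3 genes below 5 CPM.

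**Figure D1:**
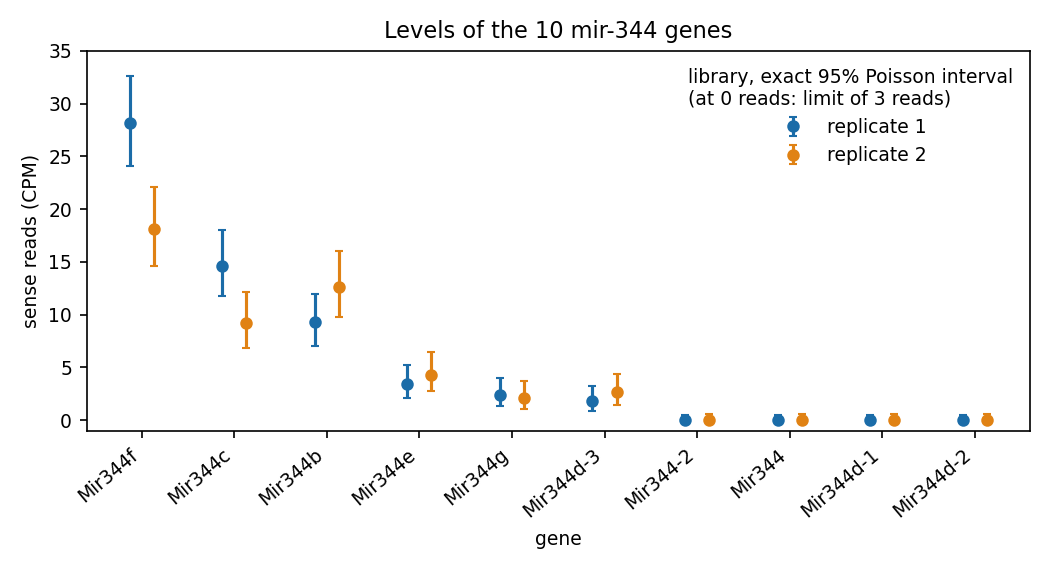
Sense-strand CPM of the 10 mir-344 genes (y axis) in each library, with exact 95% Poisson intervals of the reads or, at 0 reads, bars up to the limit of 3 reads. Mir344f stands highest in both libraries, at 28.1 and 18.1 CPM, and the last 4 genes are at 0 reads in both.

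The listed copies without reads all shared a run of 30 or more bases with another hairpin, but so did Mir344d-3, which was detected. For each hairpin the longest run of bases also present in another of 2202 GENCODE M21 miRNA hairpins was found on the same strand. A read of below 30 nt, the insert size in the labels, that lies wholly inside such a run matches both hairpins. The run was below 30 bases for Mir344c (19), Mir344b (21), Mir344f (24), Mir344g (24) and Mir344e (25), and all 5 were detected. It was 39 for Mir344 and Mir344-2, 43 for Mir344d-1, 50 for Mir344d-2 and 51 for Mir344d-3, and of these 5 only Mir344d-3 was detected. The 5 copies with shorter runs held 97.0% of the family's reads in replicate 1 and 94.6% in replicate 2 (95.8% ± 1.69).

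Genes of other families were detected less often where they share a long run. Among the genes with a Mir symbol outside the mir-344 family, 14 of 109 that share 30 or more bases with another hairpin were detected (12.8%), and 384 of 929 that share fewer (41.3%). These are shares of genes, many of them copies of one another, and no test was made of them. Reads that mapped to several places numbered 4816290 in replicate 1 and 4391928 in replicate 2 and are not listed by gene. The layout of the tables is one that leaves such reads out of the gene counts. Counting of this kind, if it was used here, can by itself lower the counts of genes with long shared runs. The shares in other families are therefore no separate support for the pattern in mir-344. Whether such counting lowered the mir-344 counts was not tested. How many of the reads that mapped to several places came from mir-344 hairpins was not tested either. Thus 0 counted reads of Mir344, Mir344-2, Mir344d-1 or Mir344d-2 do not show that the miRNA was absent.

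**Figure D2:**
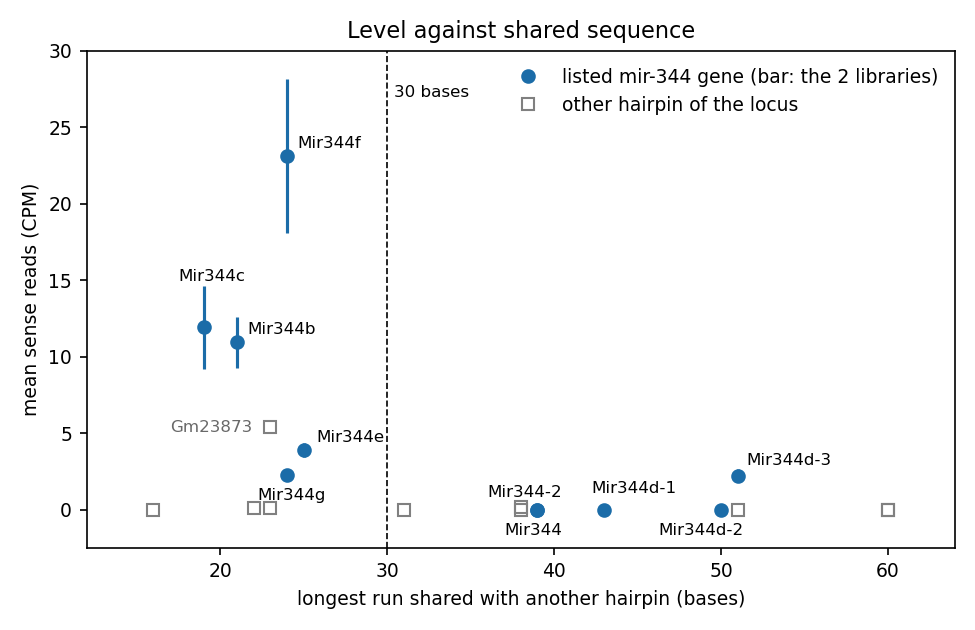
Mean sense CPM over the 2 libraries (y axis) against the longest run of bases shared with another hairpin (x axis) for the 10 mir-344 genes (filled points, bars spanning the libraries) and the other 10 hairpins of the locus (open squares). To the right of the dashed line at 30 bases the only gene with reads in both libraries is Mir344d-3, at 2.21 CPM.

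The shared runs are printed here since they show which mature RNAs lie in shared sequence, and capitals mark mature bases of the gene named first. The run of Mir344 with Mir344-2 covers the whole of miR-344-5p, and that of Mir344d-2 with Mir344d-3 the whole of miR-344d-3p. The run of Mir344f with Mir344g, the longest of either, covers 11 bases of miR-344f-3p and 15 of miR-344g-3p, neither of them whole.
Mir344 and Mir344-2: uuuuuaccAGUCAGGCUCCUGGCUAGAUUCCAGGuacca
Mir344d-2 and Mir344d-3: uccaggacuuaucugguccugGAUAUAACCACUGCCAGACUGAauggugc
Mir344f and Mir344g: agcugguuccaggCUCUAGCCAGG

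Mir344 and Mir344-2 had no mature arm of their own, since miR-344-5p and miR-344-3p are each present in both hairpins. MiR-344d-3p was present in 5 hairpins, the 3 listed Mir344d copies and the unnamed copies Gm23490 and Gm23962. The 5′ arms of Mir344d-1, Mir344d-2 and Mir344d-3 were each found in 1 hairpin only, so a read of the full arm can be assigned, yet only Mir344d-3 had reads. Both arms of Mir344b, Mir344c, Mir344f and Mir344g were found in 1 hairpin each. Mir344e had a 3′ arm of its own, while its 5′ arm was also in Mir344h-1 and Mir344h-2. Counted over all windows of 22 bases, the length of several of the mature RNAs above, 88.9% to 100% of the windows of the 5 copies with shorter runs were found in no other hairpin, and 45.8% to 56.8% of those of the other 5. Only hairpins were compared, and matches elsewhere in the genome were not searched.

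All 10 genes lie on the minus strand of chromosome 7 within 363 kb (mm10, GENCODE M21). In the direction of transcription the first is Mir344f (62046181 to 62046248), which lies between annotated genes of its strand, 300 kb from Ndn. Mir344g (61982289 to 61982359) overlaps an exon of A330076H08Rik, a non-coding transcript, and Mir344-2 (61940027 to 61940106) lies in an intron of it. Mir344 (61877770 to 61877864), Mir344c (61837311 to 61837402), Mir344b (61790519 to 61790581), Mir344e (61735537 to 61735602) and Mir344d-3 (61726249 to 61726328) lie in introns of the long non-coding RNA gene A230057D06Rik. Mir344d-2 (61685272 to 61685351) and Mir344d-1 (61683124 to 61683192) lie beyond its end, between annotated genes of their strand.

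Level did not follow position in a simple way. Mir344f, at the start, was the highest, the adjacent Mir344g was at 2.25 CPM, and Mir344c and Mir344b, 209 and 256 kb downstream, were the next highest. The 5 copies inside introns of A230057D06Rik held 179 reads in replicate 1 and 153 in replicate 2, with 4 of 5 detected, and Mir344f alone held 173 and 96. Mir344-2 and Mir344, at 0 reads, lie between Mir344g and Mir344c, which were both detected.

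The tandem array holds 20 annotated hairpins, and the other 10 were read little, with 1 exception. Mir344h-1 and Mir344h-2 are identical over their whole length of 60 bases and had 0 reads in both libraries. Mir344i, which shares 38 bases with Gm24923, had 0 and 2 reads. Of the 7 hairpins without a Mir symbol Gm24923, Gm23490, Gm23962 and Gm25533 had 0 reads, and Gm23917 and Gm22466 had 1 read in replicate 1 and 0 in replicate 2. Gm25533 shares only 16 bases with any other hairpin, so 0 reads there did not go with a long shared run. Gm23873 had 29 and 32 reads (5.37 ± 0.93 CPM), between Mir344b and Mir344e. All 7 were named after their values were seen, apart from Gm23962 and Gm24923, which flank the 10 genes. Beyond the array the next miRNA genes were Mir211, 2120 kb away with 99 and 94 reads, and Mir6389, 4093 kb away on the other side with 0 reads.

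**Figure D3:**
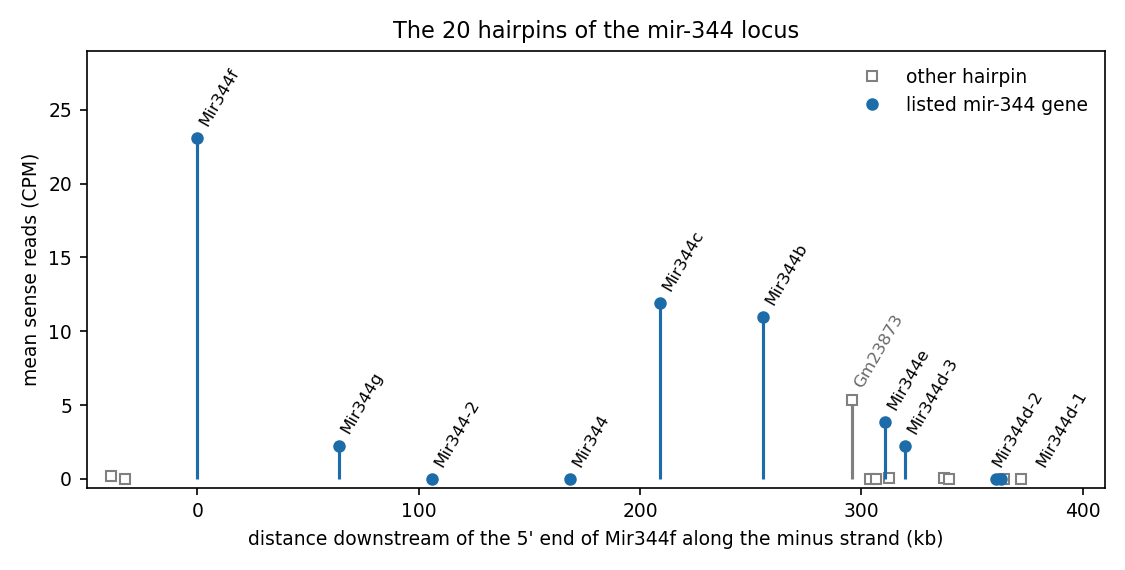
Mean sense CPM over the 2 libraries (y axis) of the 20 hairpins of the array by distance in kb downstream of the 5′ end of Mir344f (x axis), for the listed genes (filled points) and the other hairpins (open squares). Mir344f at 23.1 CPM is at distance 0, Mir344c and Mir344b stand at 209 and 256 kb, and Gm23873 at 5.37 CPM is the highest hairpin outside the list.

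Mir344f and Mir344c were lower in replicate 2, and no other detected member passed the test between the libraries. The test was a two-sided exact binomial test of the reads in the 2 libraries, run on all 411 detected genes with Benjamini-Hochberg adjustment at 0.05. It compares these 2 libraries and covers counting error only. With 0.5 reads added to every count, the log2 ratio (replicate 2 to replicate 1) was -0.63 for Mir344f (exact 95% interval -1.01 to -0.27, adjusted p = 0.00132). For Mir344c it was -0.66 (-1.20 to -0.15, adjusted p = 0.0233). Of all detected genes 47.4% passed this test, 29.2% as higher in replicate 1 and 18.2% as higher in replicate 2, so 2 of 6 members, both higher in replicate 1, lies near the background and is no result about the family. A spread between pools was then assumed, with the biological coefficient of variation fixed at 0.2 in edgeR's exact test. Neither gene passed at that setting, and 1.46% of detected genes did. The value of 0.2 was chosen and could not be estimated from these libraries, and the outcome depends on it.

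The other 4 detected members had ratios that their counts could not tell from 0. Mir344b had a ratio of 0.44 (-0.09 to 0.98, adjusted p = 0.156 by the exact binomial test). The ratios were 0.55 for Mir344d-3, 0.34 for Mir344e and -0.22 for Mir344g, with adjusted p-values from 0.585 to 0.829 by the same exact test. Of the 6 ratios 3 were below 0, with a median of 0.06, and 59.9% of the ratios of all detected genes were below 0, with a median of -0.06. The median size of the ratio was 0.49 for the 6 members and 0.18 for all detected genes, most of which had more reads.

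**Figure D4:**
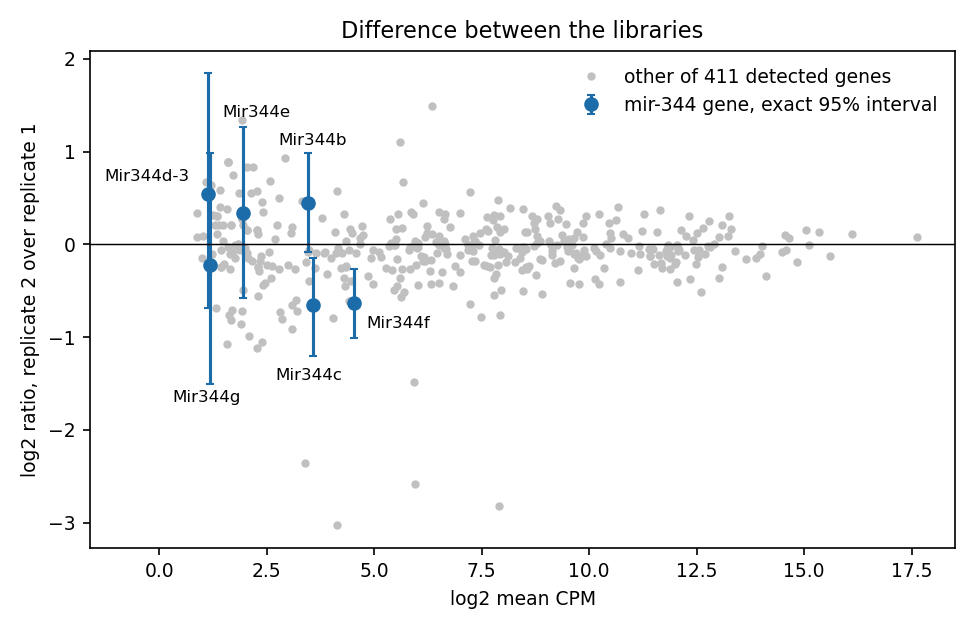
Log2 ratio of replicate 2 over replicate 1 (y axis) against log2 mean CPM (x axis) for the 411 detected genes (grey), with the 6 detected mir-344 genes in blue and their exact 95% intervals. The intervals of Mir344f and Mir344c lie below 0, and those of the other 4 genes include 0.

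Most of the neuronal miRNA genes listed as markers were read in both libraries. Of 11 such genes, which include copies of mir-9, mir-124, mir-128, mir-153, mir-137 and mir-218, 9 were detected. The 11 genes summed to 25916 CPM in replicate 1 and 24695 CPM in replicate 2, most of it from Mir137 (15865 and 14350 CPM) and Mir153 (6142 and 5594 CPM). The counted reads of the mir-124 copies were low, with Mir124a-1 at 5.36 and 4.71 CPM and Mir124a-2 at 3.58 and 4.14 CPM. Mir124a-3 was at 0.325 and 0.753 CPM, and Mir9-2 at 2.11 and 0.565 CPM. The layout of the counts is one that leaves out reads that map to several places. Low or 0 counts of genes with several copies, here and in the muscle list below, therefore do not show that their miRNA was scarce. By mean level 7 of the 11 stood above Mir344f. Markers of other cells were also present. The endothelial Mir126a stood at 23067 and 24810 CPM, Mir204 of the choroid plexus at 2444 and 2016 CPM, and the 2 erythroid genes summed to 196 and 246 CPM. Mir223 of myeloid cells stood at 135 and 140 CPM and the liver miRNA Mir122 at 74.9 and 55.3 CPM. Of the muscle list 4 of 5 genes were measured, Mir206 stood at 18.2 and 17.7 CPM and 3 were at 0 reads. The 6 epithelial genes summed to 700 CPM in replicate 1 and 143 CPM in replicate 2, the highest of them being Mir429 (419 and 59.5 CPM). The log2 ratios of these 6 genes (replicate 2 to replicate 1) were -3.03 for Mir200a, -2.82 for Mir429 and -2.58 for Mir200b. They were -2.35 for Mir141, -1.48 for Mir200c and -0.43 for Mir205. Among all detected genes 59.9% of the ratios were below 0, with a median of -0.06 and an SD of 0.43. Any part of the marker genes' cells in the ratios of Mir344f and Mir344c was not tested.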

How the data were processed

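MicroRNA-seq tables of 2 libraries were used. Each deposited table gives unnormalised read counts for miRNA genes (assembly mm10, GENCODE annotation M4), per the text file deposited beside it. The aligner, counting program, versions and adapter trimming are not given in the sources used here. For every gene the sense and opposite columns summed to the either-strand column. The layout is that of STAR's gene counts, in which reads that align to several places are not counted to a gene; this was read from the values. Library sizes leave out rows without a gene. These held 35.3% (several places), 15.6% (unmapped) and 3.99% (no gene) of 13638577 reads in replicate 1, and 36.5%, 15.2% and 4.14% of 12027645 reads in replicate 2.

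Sense counts were scaled to the summed sense counts. Names, positions and hairpins came from GENCODE M21, to which 1894 of 1973 identifiers matched, and mature sequences from RefSeq (GRCm38.p6). Shared runs and windows were exact matches. The binomial test was tried on simulated counts with counting noise only, where it called 1.82% of unchanged genes. The simulation held no spread between pools, so it does not show how the test behaves under such spread. Named genes were the 10 members, other Mir344 genes, the flanking miRNA genes and the marker lists. The 3 genes nearest in level to the member with the most counted reads were also named. The members and lists were chosen with earlier results of these data known. The labels call the libraries biological replicates. Python 3.11.15, scipy 1.17.1, pandas 2.3.3, matplotlib 3.10.9, R 4.3.3 and edgeR 4.0.16 were used.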

Additional observations from a re-analysis of the deposited data

Results flagged for a closer look

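Gm23873, a hairpin of the mir-344 array that is not among the 10 listed genes, had reads in both libraries above the limit that a count of 0 allows, with a mean of 5.37 CPM (29 and 32 reads). It lies on the minus strand of chromosome 7 (61750468 to 61750537, mm10) in an intron of A230057D06Rik, between Mir344b and Mir344h-2. Its hairpin is shown with the run of 22 bases that it shares with Mir344d-1 in capitals.
Gm23873: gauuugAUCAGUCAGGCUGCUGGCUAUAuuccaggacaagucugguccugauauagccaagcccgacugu
The run holds the letters GUCAGGC, the 5′ seed of 7 listed genes. The RefSeq table used here lists 0 mature sequences for it, and the arm its reads came from is not known.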

How the results depend on the processing

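No paired analysis was possible because the 2 libraries form 1 group. Ratios between the libraries have no value with either library left out. Scaled to all reads of the library, the summed level was 24.3 CPM and that of Mir344f 10.3 CPM. Leaving out 1 library gave 48.9 to 59.7 CPM for the summed level, 18.1 to 28.1 CPM for Mir344f, 6 detected genes either way and 94.6% to 97.0% of reads in copies with shared runs below 30 bases. When detection asked for 50 reads in each library, 2 of the 10 members passed it and 1 of these 2, Mir344f, passed the exact binomial test. With edgeR's exact test at the fixed biological coefficient of variation of 0.2, 0 of 6 passed. With the run limit at 25 bases, which leaves out Mir344e, the share was 88.5%, and at 20 bases, which keeps Mir344c alone, it was 21.7%, so the split depends on the limit while the order of the runs does not. The log2 of the Mir344c level over the Mir344b level was 0.12 per gene and -0.42 per base of hairpin, a setting chosen after seeing the data. With all 20 hairpins of the array, also chosen then, the sum was 60.02 CPM. TMM and RLE factors changed no direction and no call of the 6 genes. The counts of 11 to 23 reads of Mir344d-3, Mir344g and Mir344e limit what can be said of their differences.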
